A study of Rattus norvegicus with 20 samples.

Results

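The precursors mir-132 (rno-mir-132) and mir-212 (rno-mir-212) lie beside each other in the rat genome, and they were described here as 2 of the 444 miRBase precursors counted in this series. They were taken by name, with earlier results of these data known, together with the 4 mature arms listed for them among 577 mature miRNAs. The small RNA came from Long Evans rats, all male, untreated and aged 35 days after birth, and the groups are labelled by tissue only. The 20 libraries were 3 whole brain hemispheres from single rats, 14 pools, 1 for each of the other tissues, and 3 libraries of blood serum. For each pool the miRNA of 3 rats had been combined before sequencing, so a pool has no replicate and its value carries counting error only.

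A miRNA gene is transcribed into a long primary transcript from which a hairpin precursor is cut. Dicer then releases a short duplex, and 1 strand of it, from the 5p or the 3p side of the hairpin, is usually kept in the silencing complex, where its seed near the 5′ end pairs with messenger RNAs. mir-132 and mir-212 are known to be transcribed together under the control of CREB, a transcription factor switched on by neuronal activity and growth factors, and miR-132 is known for its part in dendrite growth, synaptic plasticity and the circadian clock. Neuronal activity was not varied or recorded in these rats, so the data bear on where the pair was found and not on its regulation.

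The mature sequences are shown because the 3p arms share a seed while the 5p arms do not. They are the RefSeq sequences on the GRCr8 assembly, written 5′ to 3′, with the seed (bases 2 to 8) in capitals.
miR-132-3p: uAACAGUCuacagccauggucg
miR-212-3p: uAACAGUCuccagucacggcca
miR-132-5p: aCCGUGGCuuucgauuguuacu
miR-212-5p: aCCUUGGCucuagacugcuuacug
All lie on the plus strand of chromosome 10, miR-212-5p at chr10:60521771-60521794, miR-212-3p at chr10:60521811-60521832, miR-132-5p at chr10:60522055-60522076 and miR-132-3p at chr10:60522091-60522112. The mature sequences of the pair span 342 bases. The neighbouring genes in the RefSeq table of that assembly are Hic1 on the side of mir-212 and the lncRNA LOC120095261, followed by Ovca2, on the side of mir-132. No other gene of that table overlaps the span.

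The 3p arms carried the same seed, AACAGUC, which was found in no other of the 724 rat mature miRNAs of the table. They were identical at 17 of 22 positions, including the 9 at the 5′ end. Counted from 1 at the 5′ end, and with the base of miR-132-3p given before that of miR-212-3p, the differences were A10C, C14U, U17C, U20C and G22A. The 5p arms were identical at 14 of 22 compared positions, and the substitution G4U fell in the seed, so each 5p arm had a seed of its own that no other listed mature miRNA shared. Reads of the pair can therefore be told apart by sequence beyond the shared 5′ end.

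Levels are given as RPM, the estimated reads of a precursor or arm per 1000000 reads of its own annotation list. The total of precursor reads was 1204552, 570652 and 388275 in the hemispheres, 7556 to 10862 in serum, and 162080 to 3685761 in the pools. A level that corresponds to 3 reads, the limit that a count of 0 allows, was therefore at most 7.73 RPM in brain and 18.5 RPM in the pools, but 276 to 397 RPM in serum. Intervals and this limit cover counting error only. The brain label was met by its markers, since the 8 brain marker precursors summed to 49755 to 60839 RPM in the hemispheres and to at most 5411 RPM in a pool. The pancreas pool went against its label, with mir-122, the liver miRNA, at 14862 RPM beside 14726 RPM in the liver pool. Its pancreas markers summed to 496 RPM, below the median of 626 RPM over the pools. This sum was all mir-375, which large intestine held at 18328 RPM, while mir-216a and mir-217 were at 0 RPM in the pancreas pool.

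Both precursors were found in brain and were low in the 14 other tissues. In the hemispheres mir-132 was at 1398, 1493 and 1007 RPM, a mean of 1299 ± 258 RPM (SD, n = 3). mir-212 was at 982, 873 and 914 RPM, a mean of 923 ± 55.2 RPM. By brain mean they ranked at 75 and 92 among the 444 precursors, so both were of moderate abundance in this tissue. The spread of mir-132 over the hemispheres, with a coefficient of variation of 19.8%, was above the median of 11.1% for the 136 precursors with at least 100 reads in each hemisphere, and 24 of these varied more. That of mir-212, at 5.98%, was below this median. In bulk tissue, fewer cells that hold a miRNA and less of it per cell cannot be told apart.

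**Figure D1:**
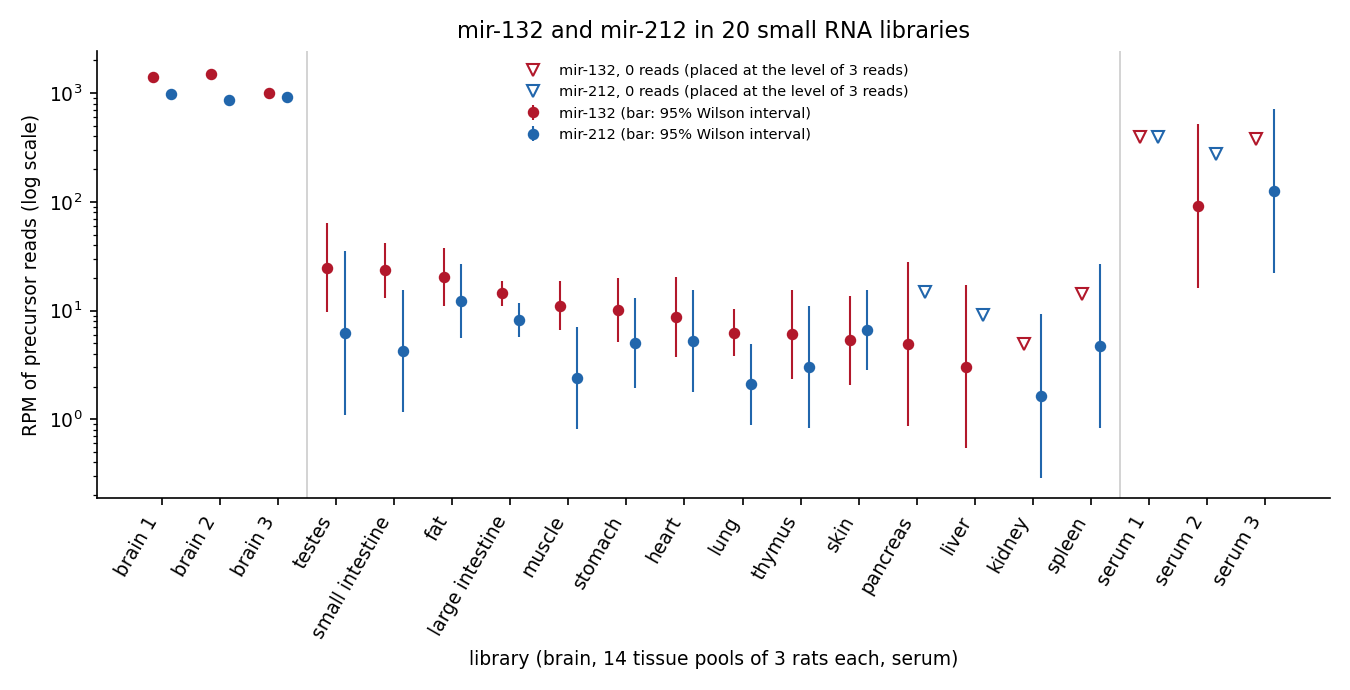
Level of mir-132 (red) and mir-212 (blue) in each of the 20 libraries, in RPM of precursor reads on a log axis. Points are single libraries, bars are 95% Wilson intervals, and open triangles mark libraries with 0 reads at the level of 3 reads. The hemispheres sit between 873 and 1493 RPM and every pool below 25 RPM, while the serum intervals and floors are wide.

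In the 14 pools mir-132 ranged from 0 to 24.7 RPM with a median of 7.48 RPM, and 130 reads in all were assigned to it there. The order of its levels ran from testes (24.7 RPM, 4 reads), small intestine (23.5 RPM, 11 reads), fat (20.4 RPM, 10 reads), large intestine (14.4 RPM, 53 reads), skeletal muscle (11.1 RPM, 14 reads) and stomach (10.1 RPM, 8 reads) through heart, lung, thymus, skin, pancreas and liver, all under 9 RPM, to kidney and spleen with 0 reads. No neighbours in this order had 95% Wilson intervals apart. Of the 91 pairs of pools, 8 had such intervals apart, and each of these set a pool from testes to skeletal muscle in this order above kidney or lung. The order of the remaining pools is within counting error.

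mir-212 ranged from 0 to 12.3 RPM in the pools with a median of 4.48 RPM, and rested on 63 reads. Fat was highest at 12.3 RPM, from 6 reads, followed by large intestine at 8.14 RPM, from 30 reads, skin at 6.64 RPM, from 5 reads, and testes at 6.17 RPM, from 1 read. Heart, stomach, spleen and small intestine followed between 4 and 5.3 RPM, then thymus, skeletal muscle, lung and kidney, and liver and pancreas had 0 reads. Its intervals were apart in 2 of the 91 pairs, fat and large intestine each above lung. The other places in this order are within counting error, that of testes included. Pearson's r between the log2 levels of the pair was 0.425 across the 14 pools, where both values of a pool share its depth.

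Every hemisphere stood above every pool for both precursors, a separation seen for 36.3% of the 295 tested precursors. The lowest hemisphere was 40.8-fold above the highest pool for mir-132 and 71.2-fold above it for mir-212. The mean over the pools was 0.761% of the brain mean for mir-132 and 0.476% for mir-212. Where a pool had 0 reads, the brain mean was set against the level of 3 reads in that pool. For mir-132 it was 265-fold above that level in kidney and 92.4-fold above it in spleen. For mir-212 it was 101-fold above that level in liver and 62.1-fold above it in pancreas. These ratios leave out the spread of the hemispheres and are not lower bounds.

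Relative to the median over the 15 tissues, with 1 RPM added before the log2, brain was 7.07 higher for mir-132 (SD 0.30 over the 3 hemispheres) and 7.34 higher for mir-212 (SD 0.09). Among the 295 precursors these were the differences at ranks 23 and 19, and the median was 1.72. No pool was more than 1.41 above the median for mir-132 or more than 1.22 above it for mir-212. These log2 differences shrink for miRNAs whose pools lie near 0.

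Brain was set against the spread of the other tissues with edgeR's quasi-likelihood test, in which the 14 pools formed 1 group. mir-132 was higher in brain by 5.69 on the log2 scale (standard error 0.77, adjusted p = 1.16e-05 from edgeR), a 51.6-fold difference. mir-212 was higher by 6.36 (standard error 0.64, adjusted p = 5.09e-07 from edgeR), or 82.1-fold. Both passed the adjusted threshold of 0.05 with every hemisphere above every pool. The same call was made for 24.1% of the 295 tested precursors, and by size of the log2 fold change mir-212 ranked at 19 and mir-132 at 24 of them. Without the pancreas pool the log2 differences were 5.52 and 6.17. The hemispheres are 1 tissue entered as 3 libraries, so these p-values can be too small. mir-212 reached 10 reads in only 1 pool and passed the filter on low counts through its brain libraries, whereas mir-132 reached 10 reads in 5 pools. With library totals in place of TMM the log2 differences were 7.02 and 7.64, while the median over all tested precursors moved from 0.17 to 1.19.

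At the depth reached, serum gave 1 read of each member, so the level of the pair there was poorly resolved. mir-132 had 1 read, in serum replicate 2 (92.1 RPM), and mir-212 had 1 read, in serum replicate 3 (126 RPM), and the other libraries had 0. At the brain level the 3 serum libraries together would have been expected to show 34.2 reads of mir-132 and 24.3 of mir-212. Over the 26348 serum reads, 1 read corresponds to 38.0 RPM, with a 95% Wilson interval of 6.70 to 215 RPM. This is 0.516% to 16.5% of the brain mean for mir-132 and 0.726% to 23.3% for mir-212. At the mean level of the pools only 0.261 and 0.116 reads would have been expected. The serum interval overlapped that of the summed pools for mir-132 (8.69 to 12.3 RPM) and lay just above it for mir-212 (3.91 to 6.40 RPM). Summing the pools leaves out the spread between tissues. With 1 serum read of each member, a difference between serum and the pools was not tested.

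In edgeR's test of the 3 hemispheres against the 3 serum libraries, mir-132 was higher in brain by 4.95 on the log2 scale (standard error 0.68, adjusted p = 4.52e-05 from edgeR) and mir-212 by 4.47 (standard error 0.74, adjusted p = 0.000207 from edgeR). Of the 235 precursors tested, 44.7% were called higher in brain and 65.5% had every hemisphere above every serum library, as both members did. The median over these precursors log2 fold change was 2.15, and the pair ranked at 80 and 87 by log2 fold change. With 1 serum read behind each value, the fold changes depend on the prior count that edgeR adds. Both members passed the filter through the brain libraries alone.

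The mature list gave the level of each arm. In the hemispheres miR-132-3p, the arm usually meant by the name miR-132, was at 964, 1020 and 678 RPM of mature reads, and miR-212-3p at 736, 618 and 556 RPM. miR-212-5p was at 350, 332 and 479 RPM, and miR-132-5p at 274, 247 and 171 RPM. In each hemisphere the 3p arm was thus the larger of its precursor, and the 3p arms, which share the seed, were the 2 most abundant of the 4. Their brain means were 887 ± 183 RPM for miR-132-3p, 636 ± 91.3 RPM for miR-212-3p, 387 ± 80.5 RPM for miR-212-5p and 231 ± 53.3 RPM for miR-132-5p (SD, n = 3).

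All 4 arms were called higher in brain than in the pools by edgeR's quasi-likelihood test, with every hemisphere above every pool. No more than 1 pool reached 10 reads of any arm, so the arms passed the filter on low counts through the brain libraries, where they were high, and the calls carry that selection. A call in this direction was made for 20.0% of the 290 tested mature miRNAs, and 28.6% had every hemisphere above every pool. The log2 differences were 6.37 for miR-212-5p (adjusted p = 2.98e-06 from edgeR), 6.34 for miR-132-5p (adjusted p = 3.47e-06), 5.87 for miR-132-3p (adjusted p = 2.42e-05) and 5.84 for miR-212-3p (adjusted p = 1.97e-06), with standard errors of 0.67 to 0.86. The differences among the arms lie within these errors. The pools together held 67 reads of miR-132-3p, 45 of miR-212-3p, 16 of miR-212-5p and 10 of miR-132-5p. The 5p arms therefore had 0 reads in 10 of 14 pools for miR-132-5p and in 7 for miR-212-5p.

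Against serum, all 4 arms were also called higher in brain, with adjusted p from edgeR between 1.21e-05 for miR-132-3p and 0.0046 for miR-212-5p, where 52.8% of the tested mature miRNAs were called higher. Every hemisphere stood above every serum library for each arm, as for 66.0% of the mature miRNAs. In a single serum library, however, 3 reads correspond to 427 to 614 RPM of mature reads. That is above every hemisphere of miR-132-5p and above hemispheres 1 and 2 of miR-212-5p. For these 5p arms the order of single libraries therefore cannot show that brain is higher. miR-132-3p and miR-212-5p had 1 serum read each, and miR-212-3p and miR-132-5p had 0, so all 4 arms entered this test through the hemispheres alone. With 0 reads in the 17336 mature reads of serum, a level of up to 173 RPM is allowed. The brain mean was 3.68-fold above that level for miR-212-3p and 1.33-fold above it for miR-132-5p. These ratios leave out the spread of the hemispheres, and miR-132-5p in hemisphere 3, at 171 RPM, lay below that level.

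The balance of the arms differed between the members. The 3p share of the reads on both arms was 77.9%, 80.5% and 79.9% in the hemispheres for mir-132, and 67.8%, 65.1% and 53.7% for mir-212. For mir-212 the share in hemisphere 3, with a Wilson interval of 48.4% to 58.9%, lay apart from those of hemispheres 1 (64.9% to 70.4%) and 2 (60.6% to 69.3%). For mir-132 the 3 intervals overlapped. The range over the hemispheres was 14.1 percentage points for mir-212 and 2.60 for mir-132. The median range was 2.28 points over the 26 precursors with both arms listed, at least 100 arm reads in each hemisphere and at least 30 reads of the lesser arm, and 3 of these had a wider range than mir-212.

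Hemisphere 3 was the shallowest of the 3 brain libraries, and it differed in the same way in the levels. miR-132-3p, miR-212-3p and miR-132-5p were each lowest there, while miR-212-5p was highest there, at 479 RPM with an interval of 410 to 560 RPM, against 316 to 388 RPM in hemisphere 1 and 284 to 387 RPM in hemisphere 2. The 5p share of hemisphere 3 exceeded the mean of the other hemispheres by 12.7 percentage points for mir-212, and by a median of 0.251 points over the same 26 precursors. The hemispheres carry no treatment or other label that sets hemisphere 3 apart, and the part of depth in this difference was not tested.

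**Figure D2:**
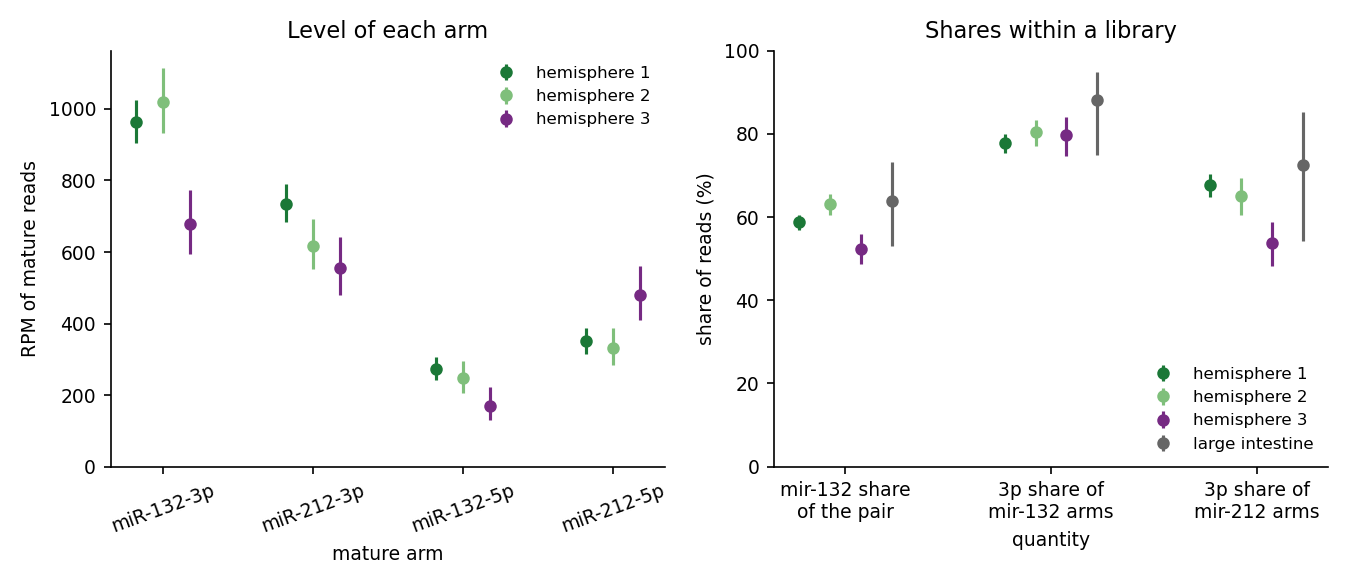
Left, level of each mature arm in the 3 hemispheres, in RPM of mature reads, with 95% Wilson intervals. Right, share of mir-132 among the precursor reads of the pair and 3p share of each member's arm reads, in percent with 95% Wilson intervals, for the hemispheres and the large intestine pool. miR-212-5p is highest in hemisphere 3, where the other 3 arms are lowest and where the 3p share of mir-212 falls to 53.7%.

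mir-132 made up 58.7% of the precursor reads of the pair in hemisphere 1 (Wilson interval 56.9% to 60.5%), 63.1% in hemisphere 2 (60.5% to 65.6%) and 52.4% in hemisphere 3 (48.8% to 56.0%). The intervals of hemispheres 1 and 2 touched only at their ends, and that of hemisphere 3 lay apart from both. These intervals hold counting error only, and no repeat library of the same rat shows how far such a share varies between libraries. On the 3p arms alone the shares were 56.7%, 62.3% and 55.0%, and the intervals of hemispheres 1 and 3 overlapped, while on the 5p arms the shares were 43.9%, 42.7% and 26.3%, with hemisphere 3 apart from the others (20.8% to 32.6%).

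In the pools mir-132 also gave more reads than mir-212, with 130 of 193 reads of the pair, or 67.4% (Wilson interval 60.5% to 73.6%). In the 3 hemispheres together its share was 59.0% (57.6% to 60.3%). Both sums leave out the spread between libraries, so their intervals are too narrow for a comparison. That of the hemispheres excludes the shares of hemispheres 2 and 3 themselves. Only large intestine, at 63.9% of 83 reads (53.1% to 73.4%), and lung, at 75.0% of 20 reads (53.1% to 88.8%), reached the minimum of 20 reads set for a test. The mean log2 ratio of mir-132 to mir-212 was 0.47 ± 0.32 (SD, n = 3) in brain and 1.15 ± 0.48 (SD, n = 2) in these pools. The difference of −0.68 had p = 0.2 in an exact two-sided permutation test, which is the smallest p that 3 libraries against 2 can give. With a minimum of 10 reads, chosen after the counts were seen, 6 pools entered and the difference was −0.89 (exact two-sided permutation test, p = 0.0476, where 0.0238 is the smallest p possible). On the 3p arms the pools gave 59.8% of 112 reads (50.6% to 68.4%), an interval that holds the share of 58.0% in brain. Of the precursor reads of mir-132 in the pools, 59.2% lay on a listed arm, against 73.6% in brain.

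For the arms of mir-132, the large intestine pool alone reached 20 arm reads, with a 3p share of 88.1% (Wilson interval 75.0% to 94.8%) against 79.4% ± 1.35 (SD, n = 3) in brain. With 1 pool there is no test. The interval of that pool overlapped those of all 3 hemispheres. For mir-212 the same pool had 72.4% of 29 arm reads on the 3p arm (54.3% to 85.3%).

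The tissue pattern was next set beside that of other precursors. Across the 15 tissues the log2 levels of mir-132 correlated best with those of mir-129-1 (r = 0.836), mir-212 (0.829), mir-1224 (0.819), mir-137 (0.811) and mir-124-2 (0.811). Those of mir-212 correlated best with mir-9a-2 and mir-9a-3 (both 0.908), mir-129-1 (0.893), mir-124-2 and mir-137 (both 0.892). For mir-212 the neighbour mir-132 came at rank 23. These precursors range from 77.5 RPM in brain for mir-1224 and 83.2 RPM for mir-137 to 11996 RPM for mir-9a-2, and each was far lower in the pools. Brain is 1 of the 15 points and sets most of each r, and the points share the depth and the total of each library.

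A list of 26 precursors known in neurons for regulation by activity or for a role at synapses was used to place the pair. Against the pools, edgeR called 16 of them higher in brain, 1 lower and 9 neither, where 24.1% of all tested precursors were called higher. The median log2 fold change was 3.81 over the list and 0.17 over all 295 tested precursors. Of the list, 11 precursors had a larger log2 fold change than mir-132 and 10 a larger one than mir-212. The list holds several copies of mir-124, mir-9a, mir-128, mir-138, mir-181a, mir-125b and mir-219a. These counts are therefore of precursors and not of separate miRNAs. Members such as mir-124, mir-137 and mir-138-2 had fewer than 10 reads over all pools. They passed the filter through the hemispheres alone, so their calls carry that selection. mir-124, a miRNA of differentiated neurons, was at 1522 to 1585 RPM in brain for each of its 3 copies and had 6 reads in the pools in all, with log2 fold changes of 10.84 to 11.76. The copies share a mature sequence, as do those of mir-9a, a miRNA of neural progenitors and neurons, at 8.07 to 8.39.

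**Figure D3:**
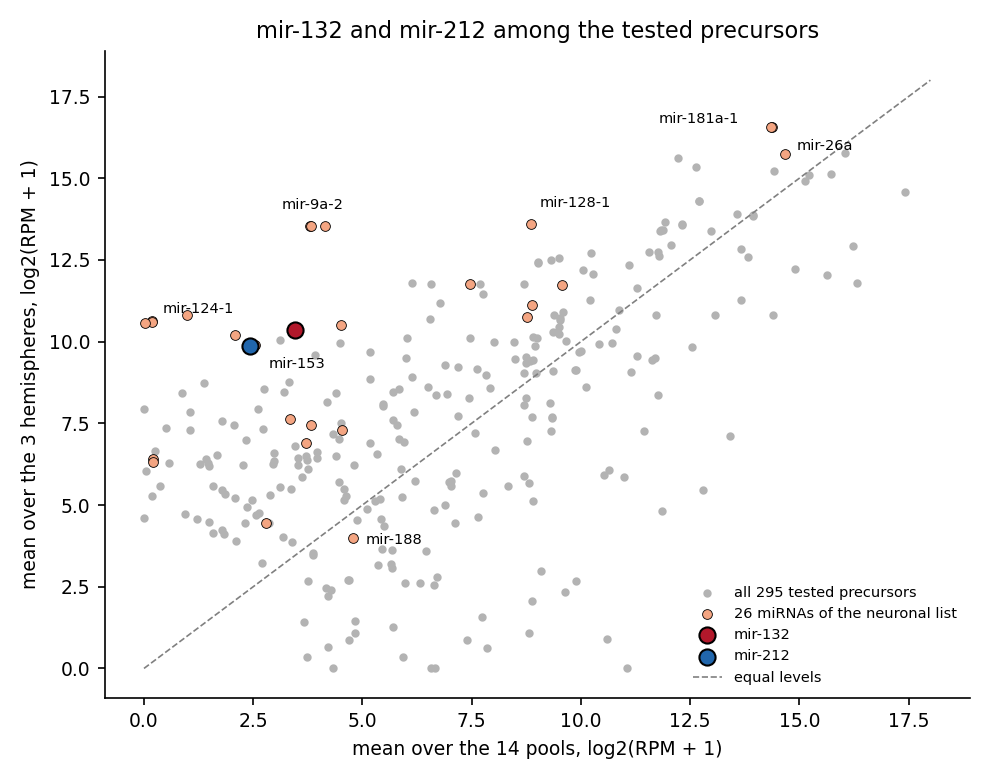
Mean level over the 3 hemispheres (vertical axis) against the mean over the 14 pools (horizontal axis), both as log2(RPM + 1), for the 295 tested precursors (grey), the 26 of the neuronal list (orange) and mir-132 and mir-212 (red and blue). The pair lies far above the line of equal levels, below mir-9a-2 in brain level and to the right of mir-124-1 in pool level.

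Members of the list near the pair in brain level and pool level included mir-384 and mir-153. mir-384, a brain miRNA studied in long-term potentiation, was at 1180 ± 56.8 RPM in brain and 3.26 RPM as the mean of the pools. mir-153, which is known to target synaptic proteins, was at 956 ± 247 RPM and 4.83 RPM. The log2 fold change was 6.85 for mir-384 (standard error 0.90, adjusted p = 7.82e-06 from edgeR) and 5.86 for mir-153 (standard error 1.05, adjusted p = 0.000266 from edgeR). It was 5.69 for mir-132 and 6.36 for mir-212. mir-138-1, which acts on dendritic spine size, was at 1456 ± 296 RPM with a log2 fold change of 5.06 (standard error 0.65, adjusted p = 5.84e-06). The differences between miRNAs were not tested.

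Other miRNAs of the list were called with less of a gap or were not called. mir-128-1, a neuronal miRNA that thymus also held at 3547 RPM, was higher in brain by 3.98 (standard error 0.89, adjusted p = 0.00187 from edgeR). mir-134, which acts on Limk1 in dendrites and lies in an imprinted cluster, was at 156 ± 21.5 RPM in brain and 137 RPM in skeletal muscle and was not separated from the pools (1.76, standard error 1.22, adjusted p = 0.227 from edgeR). mir-188, known to act on Nrp2 in neurons, was lower in brain by 1.87 (standard error 0.70, adjusted p = 0.0409 from edgeR). It was at 15.1 ± 6.46 RPM in brain against a mean of 26.3 RPM over the pools, and 18.6% of the tested precursors were called lower. The median over all tested precursors was 0.17 with TMM and 1.19 with library totals, so the size of this difference depends on the scaling.

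The low pool levels of the pair were compared with those of the brain markers in the same libraries. The mean over the pools was 0.761% of the brain mean for mir-132 and 0.476% for mir-212, while it was 0.108% to 0.139% for the 3 copies of mir-9a and 0.0013% to 0.0084% for those of mir-124. The 8 brain markers together ranged from 44.6 to 5411 RPM over the pools, with a median of 189 RPM, and were highest in thymus, where mir-128-1 and mir-128-2 made up most of the sum. mir-124-1 and mir-124-2 had 0 reads in 12 of the 14 pools and mir-124-3 in 13. Large intestine held 4 of the 6 pool reads of mir-124 and stomach and thymus 1 each, while the other pools had 0. mir-9a-2, in contrast, was found in 12 of the 14 pools. It was at 47.4 RPM in kidney, 43.4 RPM in heart, 30.8 RPM in testes and 25.6 RPM in small intestine. Stomach followed at 23.9 RPM and large intestine at 23.1 RPM, while fat held 6.13 RPM. In testes the other copies were lower, with mir-9a-1 at 6.17 RPM and mir-9a-3 at 12.3 RPM. The part of nervous tissue within the pools in their levels of mir-132 and mir-212 was not tested.

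Against serum, 24 precursors of the list passed the filter. edgeR called 19 of them higher in brain and did not call the other 5, where 44.7% of all tested precursors were called higher. The median log2 fold change was 5.28 over the list. Members with few or no serum reads, such as mir-124, mir-153 and mir-329, passed the filter through the hemispheres alone. Their calls carry that selection. The members that did not pass, mir-188 and mir-219a-1, were the lowest of the list in brain, at 15.1 and 20.7 RPM. In serum mir-124 and mir-153 had 0 reads, mir-384 had 2 and mir-138-1 had 1, beside 1 each for mir-132 and mir-212, so at this depth the serum levels of these miRNAs could not be ranked.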

How the data were processed

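Libraries were made by the authors with the TruSeq kit for small RNA and run on a MiSeq. Bases with a phred score under 20 were removed, Bowtie placed the reads on Rn5, and Partek counted them over miRBase 21 and RefSeq entries. The deposited values are estimated counts for 1409 features in 3 stacked lists, 444 precursors, 577 mature miRNAs and 388 RefSeq entries, and depth was taken within each list. The large intestine table gives its largest count, of mir-143, to 3 digits. The RefSeq entries Mir132 and Mir212 held the counts of the precursors in every library.

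Estimated counts were rounded and tested with edgeR 4.0.16 in R 4.3.3 (quasi-likelihood test, TMM, at least 10 counts in at least 3 libraries, Benjamini-Hochberg over all features of a list, threshold 0.05), and DESeq2 1.42.0 was an alternative. Shares and levels have 95% Wilson intervals, and 3 reads were the floor. The log2 ratio of the pair had 0.5 added to each count and needed 20 reads, and profiles used log2(RPM + 1). Precursors were named where they were members, were among the 5 with the most similar profile to each member, or belonged to the neuronal list. The members and lists were chosen with earlier results of these data known.

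Tissues and serum came from a cohort of 3 rats, but the sources do not tie a serum library to a hemisphere, so the libraries were not treated as paired. The p-values measure only the spread between these libraries. RefSeq sequences were matched by name to all 4 arms. The assembly of those coordinates, GRCr8, is not the Rn5 assembly of the counts.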

Additional observations from a re-analysis of the deposited data

How the results depend on the processing

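Both precursors and all 4 arms kept their direction and their call under every alternative that gave a value. Against the pools the log2 difference was 5.02 to 7.02 for mir-132 and 5.66 to 7.64 for mir-212 over 20 alternatives each, and against serum 4.27 to 12.17 and 3.86 to 11.68 over 7 each, where the highest values come from fits in which serum held 0 reads. Serum and brain libraries share replicate numbers only. Deviations of same-numbered libraries from their group means correlated at 0.103, −0.107 and −0.0799 over 75 precursors, and 1 of the 3 hemispheres and 1 of the 3 serum libraries correlated best with their own number. With the number as a replicate block 141 precursors and 125 mature miRNAs were called in place of 149 and 142, and the differences from serum were 4.95 (adjusted p = 3.8e-05 from edgeR) for mir-132 and 4.49 (adjusted p = 0.000262) for mir-212, and the block changed no call of a member or arm. No value was obtained for the members with at least 10 counts in every library, for the members against serum or the 5p arms against the pools without 1 hemisphere, or for shares with at least 100 reads. The height of brain above the tissue median shrank most with the scaling, to 6.10 with TMM and 5.28 with DESeq2 size factors for mir-132 and to 6.24 and 5.59 for mir-212. It was 6.13 and 5.99 with 10 RPM added before the log2, and 7.59 for mir-212 with 0.1 RPM added. The log2 ratio of the pair passed the threshold only with a minimum of 10 reads, at −0.89, a setting chosen after seeing the data, and was −0.83 to −0.51 without 1 hemisphere. With at least 10 counts in every library 32 precursors were called against the pools and 46 against serum, in place of 126 and 149. Leaving out 1 library gave 38 to 148 precursor calls against the pools and 55 to 141 against serum. For mature miRNAs it gave 36 to 128 calls against serum, in place of 142. Against the pools only hemispheres were left out of the mature fit, which gave 39 to 41 calls in place of 128. Among these fits without 1 library, each count below 60 came from leaving out a hemisphere. Such a fit has 2 brain libraries, while the filter asks for 3 libraries. The part of the filter in the lower counts was not tested. With library totals 123 precursors were higher and 24 lower in brain than in the pools, and 88 and 29 mature miRNAs, beside 71 and 55, and 58 and 70, with TMM. DESeq2 called 119 precursors lower. Serum depth sets the floor there at 3 reads in 7556 to 10862.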

Other observations

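The reads of mir-132 and mir-212 differed in how many fell on a listed mature arm. In the hemispheres 74.9%, 72.2% and 71.1% of the mir-132 precursor reads were on its arms, against 93.6%, 92.6% and 95.5% for mir-212. The median was 78.3% over the 115 precursors compared, of which 48 were lower than mir-132 and 90 lower than mir-212. In the pools other than large intestine, 35 of 77 mir-132 reads were on an arm, or 45.5% (Wilson interval 34.8% to 56.5%), which lies below the 73.6% (72.0% to 75.2%) of the 3 hemispheres together, while large intestine had 42 of 53, or 79.2% (66.5% to 88.0%). For mir-212 the pools had 61 of 63 reads on an arm, or 96.8%. The intervals of summed libraries leave out the spread between tissues and between rats. The reads off the arms cannot be placed within the hairpin from counts per feature, so the low pool levels of mir-132 are less well assigned to a mature miRNA than those of mir-212.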
